A study of Mus musculus with 18 samples.

Results

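Central and peripheral areas of normal mouse thyroid were compared on 8 of the 18 arrays of the study, 5 of the central and 3 of the peripheral area. The arrays were chosen by their titles alone. Both groups held RNA of thyroids of male C57BL/6 mice without partial thyroidectomy, from the right or left lobe, taken from frozen sections by laser capture microdissection, which cuts chosen regions out of a section under the microscope. The other 10 arrays, 5 of each area, held RNA of the same strain and sex from thyroids after partial thyroidectomy (dissected, in the labels). They entered the same fit. Each array carried amplified RNA of 1 captured area in Cy5 against a commercial pool of total RNA of several Swiss Webster tissues, among which thyroid is not listed, in Cy3. The labels give no age, no time after surgery and no link from an area to a mouse. Areas may therefore share animals, in which case the p-values over captured areas are too small. A captured area is a mixture of cells, and a larger number of cells of a type cannot be told apart from more RNA per cell.

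The thyroid lobe is built of follicles, whose epithelial cells, the thyrocytes, make thyroglobulin, iodinate it and release thyroid hormone. Between and beside the follicles lie the C cells, endocrine cells that secrete calcitonin when blood calcium rises. They store their peptide in dense-core granules, cut it from a precursor with prohormone convertases, and share many genes with neurons and other neuroendocrine cells. In rodents C cells lie mainly in the middle of the lobe and are scarce at its edge.

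Each value is a log2 ratio of tissue to reference, and a difference is the central mean minus the peripheral mean of these log2 ratios. Genes with an adjusted p under 0.05 count as called, in limma with Benjamini-Hochberg adjustment over 14663 genes. By that rule 41 genes were called, each with the higher mean in central arrays, 0.28% of the genes tested in that direction. No gene was called lower in the central area by limma, against 837 higher and 422 lower at an unadjusted p under 0.05. The called differences, as fitted, ran from 0.76 for Tbc1d9 to 4.14 for Cxcl13. Of the 41 genes, 25 differed by more than 2 on the log2 scale, which is over 4-fold. Across all genes the median difference was 0.01 and the median half-width of its 95% interval was 0.47. Every central array stood above every peripheral array for 524 genes, which is 3.57%, and below every peripheral array for 188 genes, which is 1.28%.

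**Figure D1:**
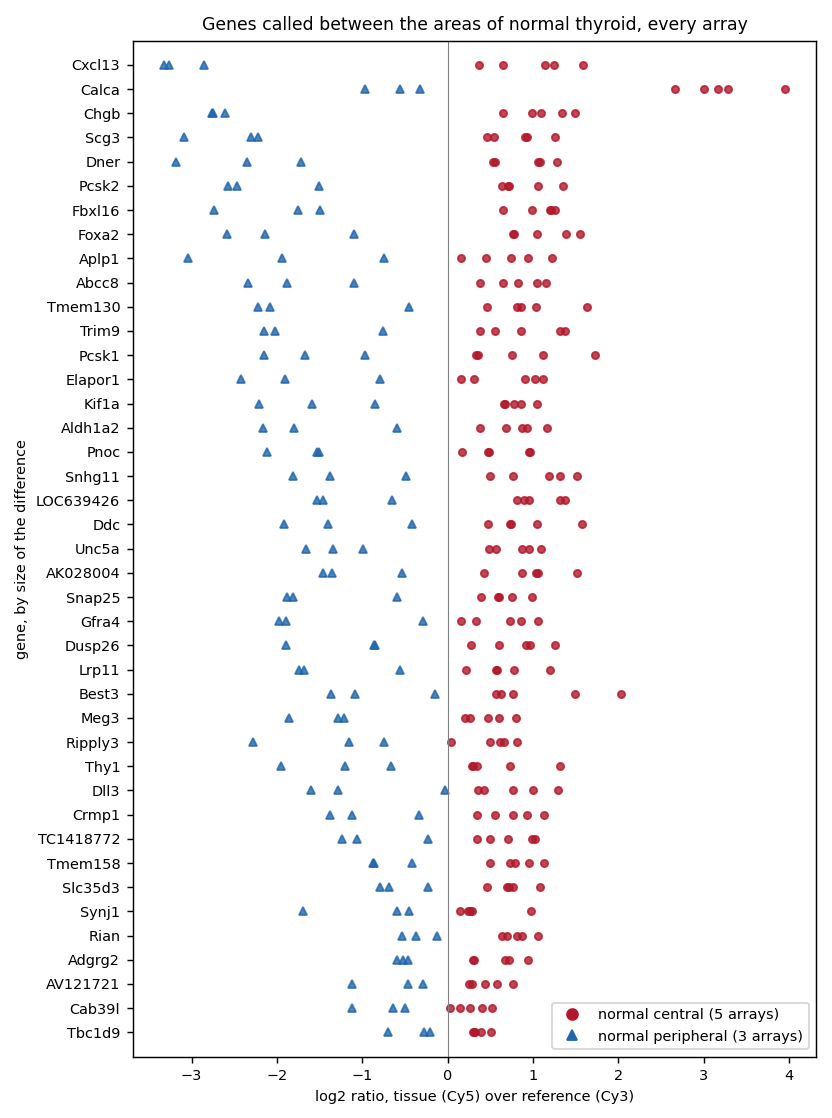
Log2 ratio of tissue over reference (horizontal axis) of the 41 genes called between the areas, 1 row a gene ordered by the size of the difference, with red circles for the 5 normal central arrays and blue triangles for the 3 normal peripheral arrays. The circles lie to the right of the triangles in every row, and the gap in the ratio is widest for Cxcl13, Calca and Chgb, at mean differences of 4.14, 3.83 and 3.82. In the tissue channel alone Calca differed by 1.05, and its reference channel by -2.81.

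The thyroid marker thyroglobulin was present in both areas. Thyroglobulin, Tg, lay at 1.38, 1.19, 1.64, 1.44 and 1.04 on central arrays 1 to 5 and at 2.23, 1.45 and 0.86 on peripheral arrays 1 to 3. The groups overlapped, and all 8 arrays were above the reference. Some arrays stood apart before any comparison. On peripheral array 1, 25.4% of gene spots were well above background in Cy5, against 37.8% to 43.7% on the other 7 arrays. Central array 3 held a signal of parathyroid hormone: Pth lay at 3.99 there and between -4.99 and -3.98 on the other central arrays, and at -1.80, -4.67 and -4.27 on the peripheral arrays. Pth was well above background on 2 of 5 central and 2 of 3 peripheral arrays, so some of its low values have no measured size. Central array 4 held a signal of fast skeletal muscle: the myosin gene Myh4 lay at 0.70 there and between -3.63 and -2.97 on the other central arrays. The gene Bpifa1, which encodes a secreted protein of airway epithelium, lay at 1.48, 1.99 and 2.02 on central arrays 2, 3 and 5 and between -3.60 and -2.21 on the other 5 normal arrays. The part of these tissues in the differences between the areas was not tested. Each array position on a slide always held the same group, so position and area cannot be told apart.

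**Figure D2:**
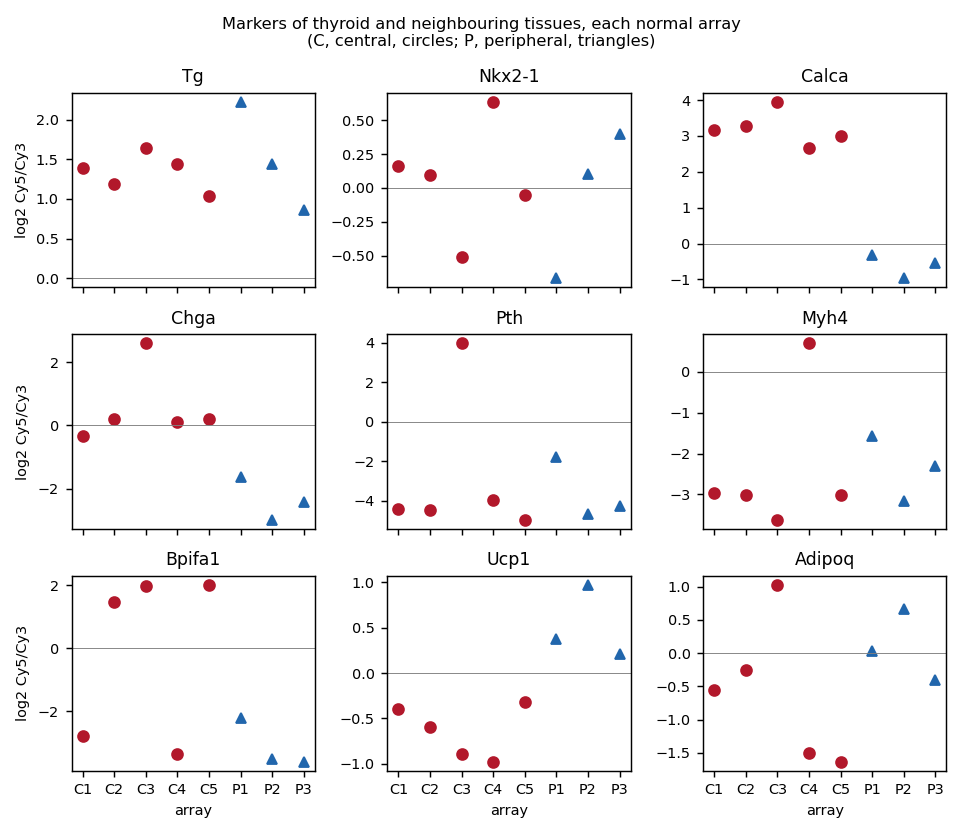
Log2 ratio of tissue over reference (vertical axis, scaled for each gene) on central arrays C1 to C5 (red circles) and peripheral arrays P1 to P3 (blue triangles) for 9 markers of thyroid and neighbouring tissues. Pth and Chga peak on central array 3 at 3.99 and 2.60, Myh4 on central array 4 at 0.70, Bpifa1 is high on central arrays 2, 3 and 5, and Calca separates the areas completely.

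Promoters of the 3 genes with the largest differences in the ratio of tissue to reference are shown: Calca encodes calcitonin, Chgb the granule protein chromogranin B, and Cxcl13 a chemokine. Each is the RefSeq sequence of build GRCm38.p6 from 250 bases before to 50 bases after a start, 5′ to 3′ on the gene's strand. Capitals mark matches to motifs, searched on both strands. One was the cAMP response element, spelled TGACGTCA. Another was an E-box, spelled CAGCTG. The GC box is spelled GGCGGGG and appears reversed and complemented in the Chgb window. The forkhead core, spelled TGTTTAC, was searched as well and had no match in these windows.
Calca, chr7:114636308-114636607, minus strand: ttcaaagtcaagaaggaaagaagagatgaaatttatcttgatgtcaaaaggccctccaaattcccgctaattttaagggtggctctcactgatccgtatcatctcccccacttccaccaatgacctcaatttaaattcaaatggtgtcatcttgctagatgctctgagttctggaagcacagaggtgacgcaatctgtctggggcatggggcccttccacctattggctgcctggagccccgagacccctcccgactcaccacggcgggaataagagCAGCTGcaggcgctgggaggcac
Chgb, chr2:132781392-132781691, plus strand: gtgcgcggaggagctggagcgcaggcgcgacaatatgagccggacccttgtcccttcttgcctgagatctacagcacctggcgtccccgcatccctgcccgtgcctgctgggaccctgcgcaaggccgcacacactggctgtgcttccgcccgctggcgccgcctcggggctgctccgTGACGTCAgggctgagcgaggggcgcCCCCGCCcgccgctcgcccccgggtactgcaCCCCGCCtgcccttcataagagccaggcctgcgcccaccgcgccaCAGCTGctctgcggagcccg
Cxcl13, chr5:95956689-95956988, plus strand: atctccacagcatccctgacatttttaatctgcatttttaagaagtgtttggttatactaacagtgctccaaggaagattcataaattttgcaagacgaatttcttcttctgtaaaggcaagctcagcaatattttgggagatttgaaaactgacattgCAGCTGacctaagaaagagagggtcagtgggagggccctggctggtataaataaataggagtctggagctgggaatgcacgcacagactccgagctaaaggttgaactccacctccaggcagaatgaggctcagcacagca

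The Chgb window held a cAMP response element that begins 72 bases before the start, 2 GC boxes at 46 and 15 bases before it and an E-box 31 bases into the transcript. The Calca window held an E-box from base 28 of the transcript, and the Cxcl13 window one from 91 bases before the start. Of the 41 called genes 29 had a promoter in the table, with 38 windows in all. The E-box stood in 12 of the 38 windows (31.6%), against 15.6% of 12597 windows of tested genes and 16.3% of 32851 windows of all genes. The cAMP response element stood in 3 of 38 (7.89%), those of Chgb, Meg3 and Pcsk1, against 2.87% of the windows of tested genes and 1.79% of all. The GC box stood in 10 of 38 (26.3%), against 40.3% and 23.5%. The forkhead core stood in 1 of 38 (2.63%), that of Pcsk1, against 2.78% and 3.65%. In no window of a called gene did matches to different motifs overlap. A match describes the letters of a window and no more.

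Calca, which encodes calcitonin, the hormone of C cells, had the second largest difference in the ratio, most of which came from the reference channel, as given below. It lay at 3.17, 3.28, 3.96, 2.66 and 3.01 on central arrays 1 to 5 and at -0.33, -0.97 and -0.55 on peripheral arrays 1 to 3. Every central array was above every peripheral array. The means were 3.22 ± 0.48 (SD, n = 5) and -0.62 ± 0.33 (SD, n = 3), a difference of 3.83 with a standard error of 0.71 (limma, adjusted p = 0.0366). The difference was 3.21, 3.50 and 4.26 on the 3 slides that held both areas. It stayed between 3.65 and 3.98 when any 1 of the 8 normal arrays was left out, at adjusted p of 0.0581 to 0.155 in limma, so the call was lost each time. The probe lies at chr7:110549383-110549442 in the build of the files, mm7, and what it covers in the gene was not determined. A second Calca probe, made to transcript variant 2, differed by 4.37 in the ratio, and its dye channels were not compared separately.

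The dyes contributed to the Calca ratio in a way not seen in the other called genes. Its Cy5 intensity ran from 439600 to 634200 in the central area and from 117600 to 227300 in the peripheral area, a log2 difference of 1.05, and it was saturated on 2 arrays. Its Cy3 intensity, the reference, ran from 21950 to 52670 in the central area and from 327100 to 494000 in the peripheral area, a log2 difference of -2.81. For the other 40 called genes the Cy3 difference lay between -0.28 and 0.24. In Cy5 alone all 41 genes were higher in the central area, 39 of them with no overlap between arrays. The median log2 difference of the 41 in Cy5 was 2.21 against -0.04 in Cy3. Cy5 is part of the ratio by which the 41 were called on these arrays, so its direction is no separate check. The share of all genes without overlap in Cy5 was not counted.

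Of the other peptide hormones that C cells and related endocrine cells can make, Calca was the single call among 14 measured genes of 19, and the median difference of the list was 0.12. A gene counts as measured if a probe of it was well above background in Cy5 on at least 3 of the 18 arrays. One not measured may thus have a probe that was too dim. For this list and each one below, the share called over all genes was 0.28%. The uncalled genes named here and below were chosen after their values were seen, except the 10 lower genes with the smallest p and the leading 4 members of lists without a call. Somatostatin, Sst, lay at 1.03, 0.64, 1.54, 0.42 and 0.71 on the central arrays and at -0.61, -1.29 and -2.21 on the peripheral arrays. The arrays did not overlap, yet the difference of 2.24 was not called (limma, adjusted p = 0.233), and only 1 peripheral array was well above background. Gastrin-releasing peptide, Grp, differed by 1.75 (adjusted p = 0.566 in limma). Some uncalled genes were well above background on no peripheral array and are given below as bounds, from single-channel values as described for the called genes. Such a bound concerns the means of the arrays and leaves out their spread. Cholecystokinin, Cck, was at least 2.22-fold higher in the central area (adjusted p = 0.434). Calcb, the neighbouring gene of the calcitonin family, was at least 1.02-fold higher, and its arrays overlapped.

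Granins, the acidic proteins that pack dense-core granules, and the enzymes that cut prohormones were the list with the most calls. Of 13 measured genes of 14, 4 rose in the central area, against 0.28% of all genes, and 9 had arrays that did not overlap with central above, against 3.57%. Of the 13, 12 were above 0, and the median difference was 1.92, against 0.01 over all genes. Chgb lay at 0.64, 1.09, 1.49, 1.34 and 0.99 on the central and at -2.61, -2.76 and -2.75 on the peripheral arrays. The areas were separated by a gap far wider than the spread within either. Chgb differed by 3.82 with a standard error of 0.53 (limma, adjusted p = 0.00827), by 4.09, 3.26 and 3.85 within slides, and stayed called without any 1 normal array except peripheral array 2, where the adjusted p was 0.0724.

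Secretogranin III, Scg3, which holds other granins at the granule membrane, lay at 0.94, 0.47, 1.26, 0.91 and 0.54 on the central and at -2.22, -3.09 and -2.31 on the peripheral arrays, a difference of 3.36 (limma, adjusted p = 0.0151). The proprotein convertase Pcsk2 lay at 0.72, 1.05, 1.36, 0.64 and 0.70 on the central and at -1.50, -2.47 and -2.58 on the peripheral arrays, a difference of 3.08 (limma, adjusted p = 0.0185). Its partner Pcsk1 lay at 0.75, 1.12, 1.72, 0.36 and 0.33 on the central and at -0.97, -1.68 and -2.15 on the peripheral arrays, a difference of 2.45 (limma, adjusted p = 0.0405). All 3 genes were separated by area. A second, dim probe of Pcsk1 differed by -0.16.

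Chromogranin A, Chga, the granin most used as a marker of endocrine cells, was not called. It lay at -0.34, 0.22, 2.60, 0.11 and 0.22 on the central and at -1.62, -2.99 and -2.40 on the peripheral arrays, a difference of 2.90 (limma, adjusted p = 0.0592). Central array 3, the one with the high Pth value, was far above the other central arrays, and without it the difference was 2.39 (adjusted p = 0.12). The mean of the whole granin list on that array was 1.18, against 0.24 to 0.46 on the other central and -1.44 to -0.97 on the peripheral arrays. Carboxypeptidase E, Cpe, which trims cut peptides, differed by 1.92. Resp18, a granule protein, differed by 1.93 and Scg5, a chaperone of Pcsk2, by 1.27. Scg2 was at least 1.84-fold higher. None of these 4 was called, at adjusted p of 0.132, 0.121, 0.253 and 0.104 in limma.

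The transcription factor Foxa2, known for its part in foregut endoderm and in several endocrine cells, rose by 3.05. It lay at 0.78, 0.77, 1.39, 1.55 and 1.05 on the central and at -1.10, -2.14 and -2.58 on the peripheral arrays (limma, adjusted p = 0.0217). The arrays were separated, with peripheral array 1 nearest to the central ones. It was the single call among 11 measured neuroendocrine transcription factors, whose median was 0.33. Foxa1, a relative of Foxa2, was at least 1.34-fold and Insm1, a factor of endocrine cells, at least 1.15-fold higher. Isl1 differed by 0.33, and none of these was called. Of the 11 factors, 4 were below 0, the lowest being Nkx2-2 at -0.62.

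Genes of amine handling, receptors and excitability each gave 1 call. Ddc, which makes dopamine and serotonin from their precursors, rose by 2.16 (limma, adjusted p = 0.0245). It lay at 1.04, 0.75, 1.58, 0.74 and 0.47 on the central and at -0.42, -1.40 and -1.92 on the peripheral arrays. It was called alone among 7 measured genes of its list, whose median was 0.23. Gfra4, the co-receptor through which persephin signals to Ret and which is known from C cells, rose by 2.01 (limma, adjusted p = 0.0401). It lay at 0.73, 0.86, 1.05, 0.33 and 0.15 on the central and at -0.29, -1.89 and -1.97 on the peripheral arrays. Peripheral array 1 lay close to the lowest central array. A dimmer Gfra4 probe differed by 0.18, and Ret was not measured here. Abcc8, the sulfonylurea receptor subunit of a potassium channel that couples metabolism to secretion, rose by 2.58 (limma, adjusted p = 0.0185), alone among 8 measured channel genes with a median of 0.11.

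The machinery of vesicle release gave 1 call among 20 measured genes, with a median difference of 0.40. It was Snap25, a protein of the complex that fuses vesicles with the cell membrane. It lay at 0.40, 0.60, 0.76, 0.99 and 0.59 on the central and at -0.59, -1.88 and -1.81 on the peripheral arrays, a difference of 2.09 (limma, adjusted p = 0.0245). The groups did not overlap, and a second Snap25 probe well above background differed by 1.96. Of the 20 genes 18 were above 0 and 7 had arrays that did not overlap with central above, against 3.57% over all genes. Syt13, a synaptotagmin, differed by 2.13 and was not called (limma, adjusted p = 0.132).

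Several of the remaining calls are genes best known from neurons. Kif1a, a motor that carries vesicle precursors along microtubules, lay at 0.78, 0.68, 1.04, 0.85 and 0.66 on the central and at -0.86, -1.58 and -2.21 on the peripheral arrays, a difference of 2.35 (limma, adjusted p = 0.0217). Aplp1, a relative of the amyloid precursor protein, rose by 2.61. Trim9, a ubiquitin ligase found in neurons, rose by 2.54, Unc5a, a netrin receptor, by 2.13, and Synj1, which strips the coat from recycled vesicles, by 1.30. Thy1, a surface protein of neurons, T cells and fibroblasts, rose by 1.87. It stood on the fibroblast list, where it was the single call among 14 measured genes with a median of 0.11. Of the 13 measured genes on the list of neuron-type membrane and cytoskeleton genes only Dner was called, 5 had arrays that did not overlap with central above, against 3.57% of all genes, and the median was 0.41. The adhesion molecule Ncam1 differed by 1.87 (limma, adjusted p = 0.0592) and Uchl1, a neuronal ubiquitin hydrolase, by 1.59, without a call. Elavl4, a neuronal RNA-binding protein, was at least 3.59-fold higher (limma, adjusted p = 0.159).

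Dner and Dll3, both proteins related to Notch ligands, were called and the remaining members of the Notch list were not. Dner lay at 0.55, 0.53, 1.06, 1.28 and 1.09 on the central and at -1.72, -3.18 and -2.35 on the peripheral arrays, a difference of 3.32 (limma, adjusted p = 0.0245). A second Dner probe differed by 2.68. Dll3, which acts inside the cell on Notch signalling, lay at 0.76, 0.43, 1.00, 1.29 and 0.36 on the central and at -0.03, -1.28 and -1.60 on the peripheral arrays, a difference of 1.74 (limma, adjusted p = 0.0401). Both genes were separated by area on these arrays. The list had 12 measured genes and a median of 0.16. The receptors Notch1 and Notch3 differed by -0.12 and 0.40 and the ligands Dll1 and Jag1 by 0.16 and 0.37, and their arrays overlapped.

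Cxcl13, a chemokine that draws B cells into lymphoid follicles, had the largest difference and the smallest adjusted p. It lay at 1.58, 0.36, 1.14, 1.25 and 0.65 on the central and at -2.85, -3.32 and -3.26 on the peripheral arrays. The lowest central and the highest peripheral array were far apart. The difference was 4.14 with a standard error of 0.49 (limma, adjusted p = 0.00186), 17.6-fold, and it was 4.51, 4.43 and 3.69 within slides. It was the one gene called without each of the 8 normal arrays in turn, with differences of 4.00 to 4.30 and adjusted p of 0.00308 to 0.0329. Its Cy5 intensity ran from 8936 to 39610 in the central area and from 246 to 873 in the peripheral area, while its log2 difference in Cy3 was 0.15. Its probe lies at chr5:95174192-95174251 in mm7.

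No other gene on the list of B cells and their attraction was called. Of 15 genes 7 were measured, Cxcl13 was the single call, and the median difference was -0.07. Lymphotoxin beta, Ltb, an inducer of Cxcl13 in lymphoid tissue, differed by 0.14 and its receptor Ltbr by -0.07, and the chemokine Ccl19 differed by -0.28. Cxcr5, the receptor of Cxcl13, and the B cell genes Ms4a1, Cd79a, Pax5 and Cr2 were not measured here. None of 6 measured T cell genes was called, with a median of 0.09.

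Aldh1a2, an enzyme that makes retinoic acid, rose by 2.33. It lay at 0.93, 0.87, 1.16, 0.38 and 0.69 on the central and at -0.60, -1.80 and -2.16 on the peripheral arrays (limma, adjusted p = 0.0401). It was the single call among 13 measured genes of retinoic acid handling, 7 of which were below 0, with a median of -0.21. The related enzyme Aldh1a3 was at least 1.83-fold higher and the retinol carrier Rbp4 differed by 1.28, without a call. The arrays of Aldh1a3 overlapped, and those of Rbp4 did not.

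The maternally expressed noncoding RNAs Meg3 and Rian, which lie together in an imprinted region of chromosome 12, were both called. Rian lay at 0.81, 0.69, 1.06, 0.64 and 0.87 on the central and at -0.12, -0.38 and -0.53 on the peripheral arrays, a difference of 1.16 (limma, adjusted p = 0.0217). Meg3 differed by 1.92 (limma, adjusted p = 0.0435), and its 4 other probes well above background on enough arrays differed by 0.34, 0.35, 0.95 and 1.25. Mest, an imprinted gene elsewhere, differed by 2.69 and was not called (limma, adjusted p = 0.0704). The noncoding RNA Snhg11, known from neurons, rose by 2.29.

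Pnoc, the precursor of the opioid-like peptide nociceptin, rose by 2.32, from -1.53, -1.50 and -2.12 on the peripheral arrays to 0.96, 0.48, 0.96, 0.47 and 0.16 on the central arrays (limma, adjusted p = 0.0185). All 5 central arrays were above 0 and all 3 peripheral arrays below. Further calls were Fbxl16, which encodes an F-box protein, at 3.05, and Elapor1, which encodes a membrane protein of endosomes and lysosomes, at 2.41. Dusp26, a phosphatase, rose by 2.01, and Ripply3, a corepressor known from the pharyngeal region of the embryo, by 1.92. Adgrg2, an adhesion receptor, rose by 1.11, and Tmem130, Lrp11, Tmem158 and Cab39l by 2.55, 1.99, 1.54 and 1.02. The last 4 calls carry only the names in the files: LOC639426, AK028004, TC1418772 and AV121721 rose by 2.28, 2.10, 1.56 and 1.08.

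Of the 41 called genes, 26 were well above background on all 8 arrays. Abcc8, Trim9, Kif1a, LOC639426, Unc5a, Snap25 and Ripply3 were so on 2 peripheral arrays, and Tmem130, Lrp11, TC1418772 and Rian on 1. Best3 of the bestrophin channel family, Crmp1, a cytoskeletal protein of growing axons, the nucleotide sugar transporter-like gene Slc35d3 and Tbc1d9 were well above background on all 5 central and on no peripheral array. Their differences are bounds, since the peripheral signal could be lower than could be measured. Crmp1 was at least 2.74-fold and Tbc1d9 at least 1.53-fold higher in the central area, from single-channel values open to dye bias without swapped dyes. For Best3 and Slc35d3 the same single-channel reckoning gave at least 4.04-fold and at least 2.96-fold. Those figures exceed the folds fitted to the ratio to the reference, 3.90 and 2.49, so they are no lower bounds on the ratio. Other probes existed for 21 of the called genes. Of their 32 other probes 20 passed the filter on dim probes, and 19 of those 20 were higher in the central area. Their sizes varied. Such probes of Trim9 and Elapor1 differed by only 0.36 each, those of Snhg11 by 0.25 and 0.78, of Pnoc by 0.74 and of Rian by 0.39. Those of Calca, Pcsk2, Dner and Snap25 differed by 4.37, 2.71, 2.68 and 1.96, nearer to the called values.

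The 41 genes differed in how evenly they rose. Their mean was highest on central array 3, at 1.11, and lowest on central array 5, at 0.61. Central array 3 held the highest central value for 23 of the 41, and central array 5 the lowest for 17. On the peripheral side array 1, with the fewest spots above background, held the highest of the 3 values for 35 of the 41. The mean of the 41 was -0.88 there, against -1.58 and -1.69 on peripheral arrays 2 and 3. On the 3 slides with both areas, and on both scan days, the central value of each of the 41 exceeded the peripheral one. That had to be so, since every central array stood above every peripheral array for each of the 41. It is no separate check on slide or day. Leaving out any 1 normal array moved no called fold by over 1.5 times, but it moved the calls. There were 2 calls without central array 1, 13 without 2, 2 without 3, 9 without 4 and 27 without 5. Without peripheral arrays 1, 2 and 3 there were 49, 1 and 6. With slide as a fixed block 18 genes were called, 15 of them among the 41, and with scan day as a block 41, of which 37 were shared.

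**Figure D3:**
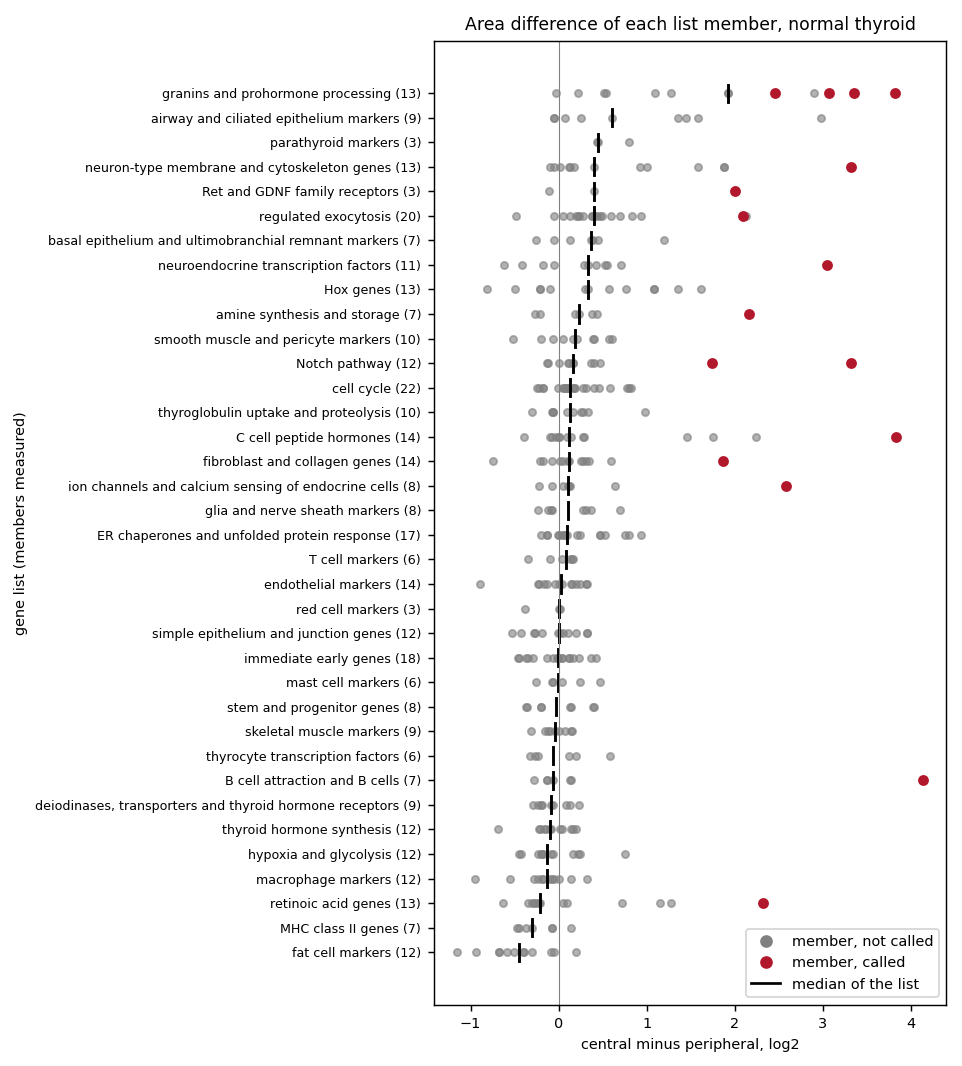
Central minus peripheral difference on the log2 scale (horizontal axis) of each measured gene of 36 lists (rows, ordered by their median, with the number measured), grey points for genes not called, red points for called genes and a black bar for the median of the list. Granins and prohormone processing have the highest median at 1.92 with 4 calls, and fat cell markers the lowest at -0.45 with none.

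Of the 36 lists 24 had no called gene, and 15 of the 41 called genes stood on a list. None of 12 measured genes by which thyrocytes make hormone was called, the arrays of the areas overlapped for each, and the median difference was -0.09. Tg differed by -0.17 with a standard error of 0.36. The thyrocyte transcription factors Pax8 and Nkx2-1 differed by 0.20 and 0.12, and none of the 6 measured factors was called. Among deiodinases, transporters and hormone receptors the median was -0.09, and among genes that take up and digest thyroglobulin it was 0.13, with no call in either. The iodide transporter Slc5a5 and the factor Foxe1 were not measured here.

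Fat was the list with the most negative median, -0.45. Of its 12 measured genes 11 were below 0 and none was called. Ucp1, the uncoupling protein of brown fat, lay at -0.40, -0.59, -0.89, -0.98 and -0.31 on the central and at 0.37, 0.97 and 0.21 on the peripheral arrays, a difference of -1.15 (limma, adjusted p = 0.661). Its arrays did not overlap. Adiponectin, Adipoq, differed by -0.68 with overlap, and central array 3, at 1.03, was its highest array. The mean of the list was -0.85 to 0.27 on the central and -0.39 to 0.65 on the peripheral arrays. Ucp1 alone of the 12 had every central array below every peripheral array, against 1.28% of all genes.

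Markers of airway, muscle, parathyroid and blood vessels were not called. The airway and ciliated list had a median of 0.61 over 9 genes. Its array means ran from -1.38 to 0.70 in the central and from -1.70 to -0.30 in the peripheral area. Bpifa1 differed by 2.98, but its central SD was 2.69 and its adjusted p 0.541 in limma. Krt5, a keratin of basal epithelium, differed by 1.19 and overlapped. Pth differed by 0.80, and by -0.89 without central array 3. With only 2 of 5 central and 2 of 3 peripheral arrays well above background, neither difference has a measured size. Muscle markers had a median of -0.04 and endothelial markers of 0.02. Hox genes, which mark position along the body axis, had no call in 13. Of these, Hoxb7 differed by 1.62, Hoxb8 by 1.36 and Hoxa4 by 1.08. By single-channel values Hoxa2 was 1.59-fold higher with overlapping arrays. Only 4 of its 5 central arrays were well above background, so that is no lower bound. Arrays did not overlap, with central above, for 2 of the 13, against 3.57% of all genes. Of the 13, 5 were below 0, among them Hoxd3 at -0.82, Hoxc4 at -0.49 and Hoxa3 and Hoxb6 at -0.21 each, and the median was 0.33. Macrophage genes had a median of -0.14 with 9 of 12 below 0, and class II antigen presentation genes one of -0.30 with 6 of 7 below 0, without a call.

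The 10 genes lower in the central area with the smallest p-values gave no call. Jdp2, a repressor of AP-1 target genes, came nearest. It lay at -0.72, -0.50, -0.70, -0.70 and -0.38 on the central and at -0.05, 0.05 and 0.14 on the peripheral arrays, a difference of -0.65 with an adjusted p of 0.102 in limma. The groups did not overlap. The RNA-binding protein gene Igf2bp1 differed by -1.08, Apln, which encodes the peptide apelin, by -0.89, the aminoacylase Acy3 by -0.97 and Fem1c by -1.34. The interferon-induced genes Oas1f and Ifi27 differed by -1.01 and -0.70, Mettl27 by -1.17 and AK030467 by -0.57, the last without central array 5, whose spot was left out. B230311B06Rik was well above background on no central array and was at least 1.55-fold higher in the peripheral area. Apln, Acy3 and Mettl27 were far higher on peripheral array 1, at 1.41, 1.50 and 1.88, than on the other peripheral arrays, at 0.11 and 0.20, 0.30 and 0.29, and -0.21 and 0.17.

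The same contrast in dissected thyroid, with 5 arrays of each area, called 86 genes, 0.587% of those tested. All 41 genes called in normal thyroid were higher in the central area there too, and 33 were called, 80.5% of the 41 and 38.4% of the 86. Both contrasts came from the same fit and share each gene's estimate of spread, so their calls are not independent. The difference between the states in the area difference was called for 0% of genes. The smallest adjusted p of that test in limma was 0.789, with 853 genes at an unadjusted p under 0.05. Calca differed by 4.50 in dissected and 3.83 in normal thyroid, Cxcl13 by 4.48 and 4.14, and Chgb by 3.81 and 3.82. The dissected Calca value rests on 4 central arrays because the spot of the fifth was left out as non-uniform. On dissected central array 2, Calca lay at -0.57, Cxcl13 at -1.91 and Chgb at -2.04, well below the normal central arrays.

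The 8 genes called in normal but not in dissected thyroid were Best3, Ripply3, Crmp1, Synj1, Rian, Adgrg2, AV121721 and Tbc1d9. Tbc1d9 was well above background on no normal peripheral array, so its size in normal thyroid is a bound and its change between the states has no measured size. Its values were 0.51, 0.30, 0.31, 0.39 and 0.33 on normal central and -0.21, -0.28 and -0.69 on normal peripheral arrays. On dissected arrays they lay between -0.13 and 0.13 in the central and between -0.22 and 0.09 in the peripheral area. The areas were separated in normal thyroid and mixed in dissected thyroid. Tbc1d9, Synj1, Rian and AV121721 were the 4 called genes with an unadjusted p under 0.05 in the test between the states, and none passed the adjustment. Pnoc, at 2.98 in dissected and 2.32 in normal thyroid, was among the 14 called genes with the larger difference in dissected thyroid, and 27 had the smaller.

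**Figure D4:**
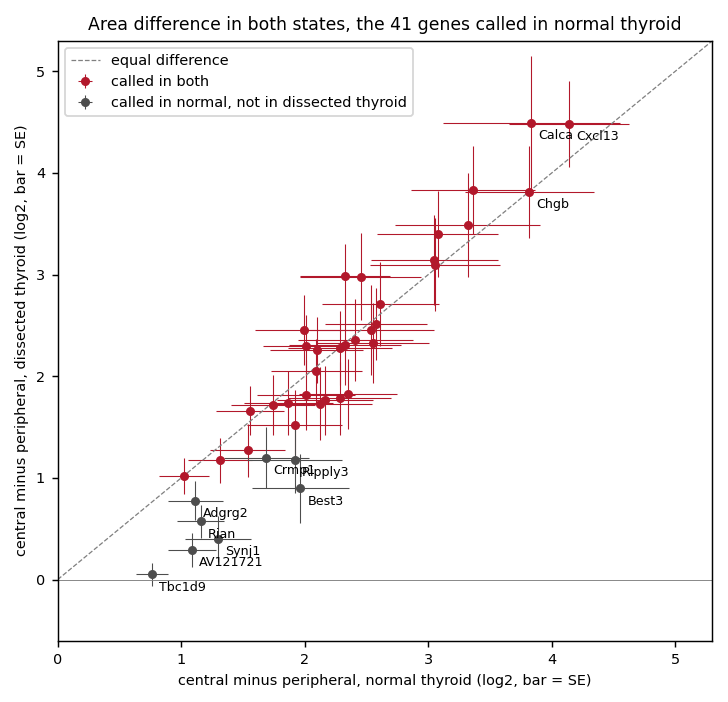
Central minus peripheral difference on the log2 scale in normal thyroid (horizontal axis) and in dissected thyroid (vertical axis) of the 41 genes called in normal thyroid, with bars of 1 standard error, red for the 33 called in both states and grey for the 8 called in normal but not in dissected thyroid. All points lie above 0, most near the dashed line of equal difference, and Tbc1d9 lies lowest at 0.05.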

How the data were processed

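The deposited scanner files give spot intensity and local background for each dye, written by Agilent Feature Extraction (9.5.1.1 per the file headers, 8.5.1.1 per the submitters' processing notes). They also give, per the file headers, a log10 ratio of Cy5 to Cy3 after that program's background subtraction and dye normalization. A series table of linear ratio values was deposited too, with processing not given in the sources used here. Both were used only as alternatives.

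Mean intensities of 45018 spots were background-corrected (normexp, offset 50) and loess-normalized within each array in limma 3.58.1 under R 4.3.3, files being read through the package data.table, version 1.17.8. Non-uniform spots were left out. Probes well above background in Cy5 on at least 3 arrays were kept, 19080 of 41174, and the brightest named each of 14663 genes. Genes were named through RefSeq accessions for 22951 probes, current symbols for 6659 and older symbols for 3109, while 8455 stayed under the files' own name. limma fitted 4 group means over 18 arrays with eBayes and two-sided tests, adjusted by Benjamini-Hochberg at 0.05. The script was tested on simulated data. Array numbers limit the precision.

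Named were every called gene, the 10 lower genes with the smallest p, Calca, Chgb and Cxcl13, the called members of each of 36 lists or the leading 4 measured members where none was called, and others where said. The members and lists were chosen with earlier results of these data known. Alternatives were other backgrounds, normalizations, filters, probe rules, blocks, and each array left out. No sequence of the mm7 build was used. Some results are not reported here.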

Additional observations from a re-analysis of the deposited data

Results flagged for a closer look

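In the central group of 5 arrays, a value was singled out where its gap to the nearest array, divided by the whole range, was above 0.71, Dixon's critical value. This picked 10 of 178 named genes. Chance alone picks about 1 group in 20, so the number picked is close to what chance alone would give. Any single value below may be such a chance pick. The peripheral group of 3 was too small for the rule.

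On central array 3, Pth stood at 3.99 (other central arrays -4.99 to -3.98), Chga at 2.60 (others -0.34 to 0.22) and Ltb at 0.55 (others 0.01 to 0.09). On central array 4, the muscle myosins Myh1 and Myh4 stood at 2.25 (others -1.82 to -0.99) and 0.70 (others -3.63 to -2.97), and the called gene Synj1 at 0.98 (others 0.15 to 0.28). On central array 1, Calr, a chaperone of the endoplasmic reticulum, stood at 0.86 (others -0.68 to -0.28) and Cpa3, a mast cell protease, at 0.56 (others -1.09 to -0.70). On central array 5, Oas1f stood at -0.06 (others -1.09 to -0.83) and Cd3e, a T cell receptor subunit, at 0.30 (others -0.12 to -0.06). Pth, Myh1, Cpa3 and Ltb were not well above background on every central array, so some of their central values have no measured size.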

How the results depend on the processing

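All 41 called genes kept a difference above 0 under each of the 33 planned and 3 added alternatives that gave them a value, while the number of calls moved. Settings that only left out arrays could not turn the sign, since every central array stood above every peripheral array for each of the 41. Against 41 in the values reported, there were 4 calls with the replicate number as a block, 18 with slide as a fixed block, 64 with array weights, 78 from the Feature Extraction log ratio, 67 with no background correction, 94 from the authors' value table (median of all genes 0.13) and 8 with no filter on dim probes, where 27670 genes were tested. Chosen after seeing the data, leaving out the 4 weak arrays (under 31% of gene spots above background) gave 95 calls, scan day 1 alone 1 and scan day 2 alone 0 in limma, with 1015 genes at an unadjusted p under 0.05. Leaving out 1 array gave 1 to 76 calls. At most 2 calls of any setting were lower in the central area. Beside the normal arrays given above, there were 24 without dissected central array 1, 76 without 2, and 25, 22, 25 and 27 without dissected peripheral arrays 1, 2, 4 and 5. The cause was not tested. Same-numbered central and peripheral arrays correlated at -0.07, 0.12 and -0.05 in their deviations, so the numbers were not taken as pairs. This does not show that the areas came from different mice. The call of 0 genes for the difference between states held under each alternative that could be fitted. Of the genes not called, Pth, with only 2 of 5 central arrays well above background, reversed to -1.49 in the authors' value table. Between 0 and 36 of the 138 genes not called changed sign without passing an unadjusted p of 0.05 on either side. The 3 peripheral arrays and dim probes limit what could be called: the median 95% interval was 0.47 on either side.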

Other observations

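Lists outside the comparisons above also differed between arrays of the central area. Genes of protein folding in the endoplasmic reticulum had a mean log2 ratio of 0.53 on central array 1 and of -0.36 to -0.06 on the other central arrays, and of -0.38 to -0.14 on the peripheral arrays. Cell cycle genes had a mean of 0.54 on central array 3, of -0.27 to 0.16 on the other central arrays and of -0.25 to -0.06 on the peripheral arrays. The proliferation marker Mki67 lay at 1.09 on central array 3, at 0.35 and 0.26 on central arrays 2 and 5, and at -1.37 and -1.31 on central arrays 1 and 4. Red cell genes had their lowest mean, -0.68, on central array 1.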
